A study of Homo sapiens with 2 samples.

Results

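Spliced transcript models that touched no exon of a RefSeq gene were followed in 2 RNA sequencing libraries of HCT116 cells, an epithelial line from a human colorectal carcinoma. A model counted when it lay on chromosomes 1 to 22, carried the assembler's own identifier instead of a RefSeq accession, had 2 or more exons and a value above 0, and shared no exonic base with a RefSeq transcript on either strand. The control assembly held 474 such models among 66412, and the assembly labelled USP49 knockdown held 534 among 67822, or 1008 of 134234 in all. They made up 5.12% of the 9257 spliced assembled models above 0 in control and 5.76% of 9269 in the other library. All other spliced assembled models overlapped RefSeq exons. The members were thus chosen by measured values, the models and FPKM of these libraries, and what follows on their level and structure is a description.

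The study compared gene expression in control cells with cells in which USP49, a protease that removes ubiquitin from histone H2B, was to be depleted. Both cultures were HCT116 cells with a tetracycline-inducible (T-Rex) knockdown construct, kept in blasticidin and puromycin. There was 1 control library and 1 labelled USP49 knockdown. The treatment text, doxycycline for 36 h, is the same for both, and whether the RNA control received doxycycline is not stated. Poly(A) RNA was copied with random primers, and no step that marks the strand is described. With 1 library per group no difference below has a replicate check, no p-value was computed, and intervals cover counting error only, with PCR copies counted as if they were separate molecules.

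Most unannotated spliced transcripts of human cells are long noncoding RNAs, which lack a long reading frame. Many start from the same open promoter as a coding gene but run the other way, and are called divergent or head to head. Others are antisense to a gene, host small nucleolar RNAs or microRNAs in their introns, come from pseudogenes, or are unannotated ends of known genes. They usually have few exons and low levels.

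A number of these transcripts were annotated later, and their splice junctions can be read there. Of 1074 distinct introns in the models, 487 (45.3%) had a counterpart in GENCODE v29, an annotation on the later build GRCh38, with the same chromosome, strand and length and the same distance, within 1000 bases, from an intron of a neighbouring RefSeq transcript. The distance was exactly the same for 469. The junctions of 6 transcripts on which results below turn are shown to let them be recognised in other data. Each intron was present exactly in both assemblies. The sequence runs 5′ to 3′ on the strand of the transcript, in the letters of the GENCODE v29 transcript, with the last 30 bases of the upstream exon in lower case and the first 30 of the next exon in capitals. ELFN1-AS1 (chromosome 7, minus strand) skips an intron of 3006 bases, SNHG19 (chromosome 16, minus) 220, PIK3CD-AS2 (chromosome 1, minus) 6199, MHENCR (chromosome 20, plus) 797, AC005076.1 (chromosome 7, minus) 91 and C22orf34 (chromosome 22, minus) 779. For C22orf34 the distance to the neighbour differed by 1 base between the builds, and for the other 5 it was the same.
ELFN1-AS1: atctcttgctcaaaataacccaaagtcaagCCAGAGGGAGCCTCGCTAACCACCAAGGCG
SNHG19: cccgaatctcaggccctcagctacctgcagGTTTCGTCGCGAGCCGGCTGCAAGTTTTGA
PIK3CD-AS2: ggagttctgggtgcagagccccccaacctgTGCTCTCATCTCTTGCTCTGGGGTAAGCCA
MHENCR: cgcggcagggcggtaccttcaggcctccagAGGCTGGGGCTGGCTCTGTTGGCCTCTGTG
AC005076.1: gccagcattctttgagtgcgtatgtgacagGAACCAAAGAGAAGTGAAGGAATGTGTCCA
C22orf34: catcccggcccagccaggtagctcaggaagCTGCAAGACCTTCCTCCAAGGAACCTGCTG

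The labels were checked first. On models that share introns with USP49 the sum was 2.88 FPKM (fragments relative to model length and library depth) in the control library (206 fragments) and 1.104 FPKM in that labelled knockdown (69 fragments). The 3′ end of the gene was carried by differently built models in the assemblies, so this is not a clean check of the label. Of 8 epithelial marker genes, 7 were above 0 in each library, with a summed level of 667 and 608 FPKM, and VIL1 was listed at 0. Leukocyte markers summed to 0.125 and 0.102 FPKM with PTPRC at 0, and endothelial markers to 0.0792 and 0.0955. Fibroblast markers summed to 10.4 and 7.80 FPKM, nearly all COL1A1, with COL1A2 and DCN at 0. Fragments recovered from the files totalled 16380804 in the control library and 19963717 in that labelled knockdown, and all FPKM below are scaled to these totals. In bulk RNA, fewer cells with a transcript and less of it per cell cannot be told apart.

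The models were low, short and simply spliced. The median level was 1.82 FPKM in the control library and 1.59 in that labelled knockdown, with the central 90% between 0.696 and 11.0 and between 0.586 and 9.11. Coding RefSeq models with introns had medians of 6.78 and 6.74 FPKM in the same libraries, and noncoding RefSeq models 0.643 and 0.575. The noncoding RefSeq models were quantified wherever they had any fragment, whereas a new model needs enough fragments to be built, so these medians are not of like sets. A level of 10 FPKM or more was reached by 27 control models (5.70%, exact 95% interval 3.79 to 8.18) and 21 models of the other library (3.93%, 2.45 to 5.95). The median model rested on 30 fragments in control and 31.4 in the other library. The lowest members stood at 0.311 and 0.267 FPKM, and the fewest fragments on a member were 9 in each library. Just outside the rule lay 4 and 2 spliced assembled models at 0, all with RefSeq overlap, and models that touched a RefSeq exon by as little as 8 bases in the control library and 22 in that labelled knockdown.

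A single intron was the common form. In control 336 models (70.9%) had 2 exons, 89 had 3, 30 had 4 and 19 (4.01%) had 5 or more, with at most 8. In the library labelled knockdown 369 (69.1%) had 2 exons, 111 had 3, 31 had 4 and 23 (4.31%) had 5 or more, with at most 9. Coding RefSeq models had a median of 9 exons in each library, and noncoding ones 4 and 5. The exonic length was also shorter, with medians of 1135 and 1087 bases against 2972 and 2964.5 for coding RefSeq models. Introns were not: their median length was 1904.5 bases in the control library and 2166 in that labelled knockdown, against 1558 and 1570 in coding RefSeq models. Models under 150 exonic bases numbered 8 and 6, and several of them head the ranking by FPKM below, where a few fragments give a high value per length.

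Lying outside RefSeq exons did not always mean lying outside RefSeq genes. The span of 82 control models (17.3%, exact 95% interval 14.002 to 21.01) and of 99 models of the library labelled knockdown (18.5%, 15.3 to 22.1) overlapped the span of a RefSeq transcript. Of these, 32 and 32 sat wholly inside a gene on its own strand, where an unannotated exon of that gene and a separate transcript have the same appearance, and 19 and 32 sat inside on the opposite strand. The name "outside RefSeq genes" therefore holds for the exons of all members, and for the whole span of 392 and 435.

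The distance to the nearest RefSeq gene varied widely, and the closest genes most often faced away. The median distance was 5189 bases in the control library and 4336 in that labelled knockdown. A gap of 1 to 1000 bases was found for 88 (18.6%) and 94 (17.6%) models, and a gap over 50000 bases for 111 (23.4%) and 126 (23.6%). Head to head was the most frequent arrangement, in 144 control models (30.4%) and 166 in the library labelled knockdown (31.1%). Within 1 to 1000 bases it accounted for 62 of 88 (70.5%, 59.8 to 79.7) and 74 of 94 (78.7%). Models downstream of a gene on its own strand, where a longer 3′ end of the gene would also be placed, numbered 126 (26.6%) and 132 (24.7%). Upstream on the same strand lay 66 and 86, and tail to tail 56 and 51. The plot of position shows that the assemblies had overlapping intervals in every class. These intervals count each model as independent, although models of 1 locus share a position and many introns recur in both libraries. They therefore do not test whether the libraries agree.

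**Figure D1:**
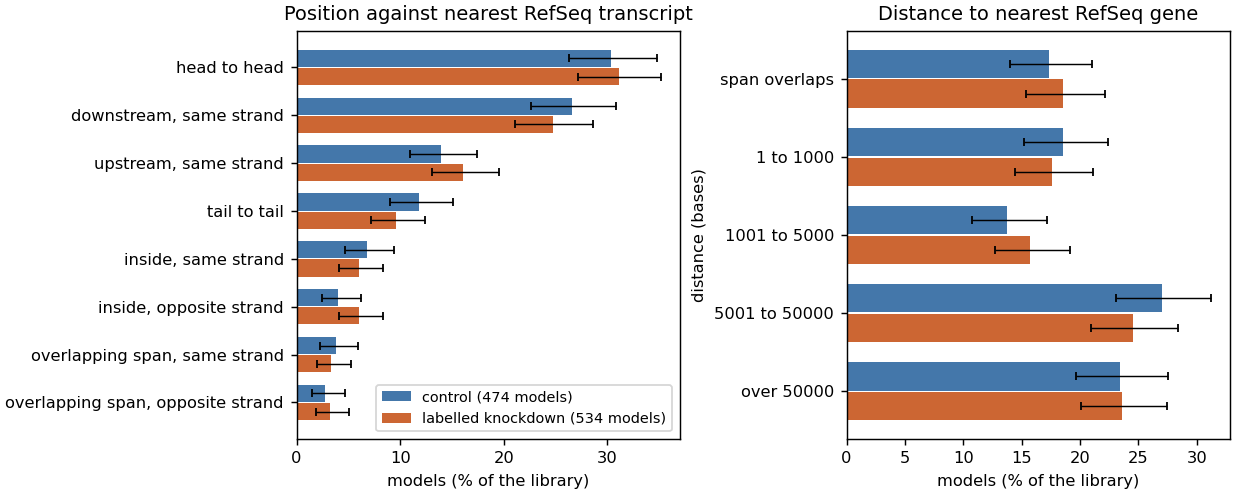
Share of the models in each library (% of 474 control models, blue, and of 534 models labelled knockdown, orange) by orientation to the nearest RefSeq transcript (left) and by distance in bases (right); bars are shares and lines exact 95% binomial intervals for counting error. Head to head is the longest bar in both libraries, at 30.4% and 31.1%.

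Joined by shared introns, the models formed 717 loci, of which 102 (14.2%) lay head to head within 1000 bases of a RefSeq gene, at a median distance of 164.5 bases. They faced 92 partner genes, whose median level was 13.7 FPKM in the control library and 13.8 in that labelled knockdown. RefSeq promoter sequences (GRCh38.p14) were at hand for 70 of the 92. In the 250 bases before the start, the partners had a median of 26 CG dinucleotides (quartiles 18 and 31), against 11 (3 and 23) over 26246 RefSeq promoters on chromosomes 1 to 22. The wider set was not limited to genes with a level in these libraries, so it is not matched to the partners. The letters TATAAA, on either strand of the window from 250 bases before to 50 after the start, were found in 1 of the 70 promoters (1.43%) and in 12.04% of all. CCAAT, on either strand, was in 25 (35.7%) and in 35.4% of all. These matches are descriptions of the letters and not of binding sites. The window before DMTF1, which encodes a Myb-like transcription factor, lies at chr7:87152203-87152452 on the plus strand, and that before GMEB2, which encodes a DNA-binding protein of the glucocorticoid modulatory element, at chr20:63627102-63627351 on the minus strand. Both are shown, from RefSeq on GRCh38.p14, as examples of the sequence upstream of a gene with a divergent RNA, which the window reaches into; they run 5′ to 3′ on the strand of the named gene, with each CG in capitals, 27 in the first and 37 in the other.
DMTF1 promoter: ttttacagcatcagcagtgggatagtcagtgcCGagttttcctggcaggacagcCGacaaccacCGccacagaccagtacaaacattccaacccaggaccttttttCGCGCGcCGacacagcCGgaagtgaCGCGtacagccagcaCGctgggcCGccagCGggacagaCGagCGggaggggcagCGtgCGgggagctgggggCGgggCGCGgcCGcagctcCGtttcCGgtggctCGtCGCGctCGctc
GMEB2 promoter: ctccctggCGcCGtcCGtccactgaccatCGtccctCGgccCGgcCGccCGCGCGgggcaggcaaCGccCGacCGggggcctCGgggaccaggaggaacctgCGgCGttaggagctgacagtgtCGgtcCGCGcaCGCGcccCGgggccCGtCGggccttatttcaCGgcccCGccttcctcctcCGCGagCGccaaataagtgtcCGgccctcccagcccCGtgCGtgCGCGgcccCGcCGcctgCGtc

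Later annotation gave many loci a name. A GENCODE v29 intron was matched in 339 loci (47.3%). The leading gene type was lincRNA, an intergenic long noncoding RNA, for 103 loci, followed by 97 loci of genes annotated as protein coding, 77 antisense RNAs and 39 pseudogenes. The types differed in place: antisense loci had a median distance of 161 bases to the nearest RefSeq gene and 29 of 77 were head to head within 1000 bases, while lincRNA loci had a median of 11532 bases and 17 of 103 such pairs. The protein-coding loci had a median of 1477 bases. Their levels were close, with medians of 1.83 FPKM for lincRNA, 1.90 for antisense, 1.87 for protein coding and 2.43 for pseudogenes, against 1.48 for the 378 loci with no matched intron. Loci in both libraries entered these medians by their mean, and loci in 1 library by their single value. The share in both ran from 17.7% of loci with no matched intron to 42.9% of antisense loci. The 339 loci fell in 299 annotated genes, of which 34 held 2 or more loci, so neighbouring loci can be pieces of the same transcript. An intron without a match says only that this procedure found none; 93.3% of the spliced RefSeq models could serve as anchors.

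Fewer than 1 in 2 models were found again in the other library. The same share for all spliced assembled models is not given here, so these values do not set the members apart. An exact intron of another library's member model was shared by 224 of 474 control models (47.3%, 42.7 to 51.9) and 234 of the 534 models labelled knockdown (43.8%). Counting every model of the other assembly, these became 233 (49.2%) and 245 (45.9%). The share was higher on models with more fragments: under 20 fragments it was 26.9% and 25.3%, and with 100 or more 72.7% and 68.6%. It was also higher with more exons, from 39.0% and 35.2% at 2 exons to 83.7% and 75.9% at 4 or more, where a model has more introns that can match. Where the match had also to be a model of 3 or more exons, 48.6% and 44.2% of the models with 3 or more exons had one. Annotation followed the same order: 161 of 263 introns present in both libraries (61.2%) had a GENCODE counterpart, against 326 of 811 seen in 1 library (40.2%). Of the 717 loci, 189 (26.4%) had models in both assemblies, 238 in control alone and 290 in the library labelled knockdown alone. The full set of introns was identical in 104 of the 189 (55.0%).

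**Figure D2:**
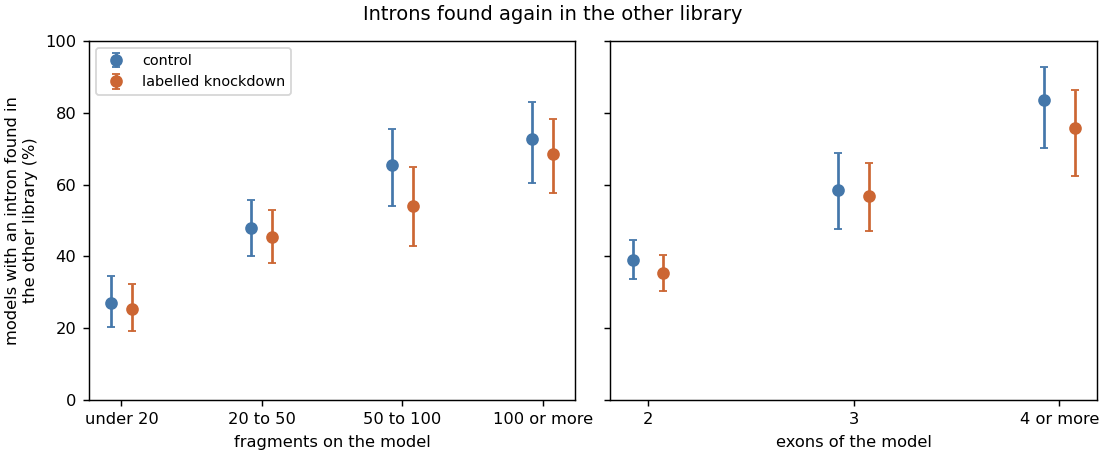
Share of models (%) with an exact intron in a member model of the other library, by fragments on the model (left) and by number of exons (right); points are shares in control (blue) and the library labelled knockdown (orange), lines exact 95% binomial intervals for counting error. The share goes from 26.9% and 25.3% under 20 fragments to 72.7% and 68.6% at 100 or more.

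Among loci present in both libraries, the highest mean level over the 2 libraries belonged to ERVK3-1, a gene from an endogenous retrovirus, at chr19:63508539-63518550 (hg18, plus strand). It lies 9473 bases downstream of the zinc finger gene ZNF8, and all 3 of its introns matched GENCODE. It stood at 39.0 FPKM in the control library (1042 fragments) and 36.8 in that labelled knockdown (1215 fragments). The depth-scaled fragment ratio was 0.957 (exact 95% interval 0.880 to 1.04), so the libraries did not differ beyond counting error. Each assembly built 2 models there with nearly the same ends, 1 of 2 exons and 1 of 4.

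Divergent and antisense RNAs covered a range of levels. OTUD6B-AS1, at chr8:92144832-92151576 (minus strand), starts 24 bases from OTUD6B, a gene of the deubiquitinase family OTU, and runs the other way. It had 26.0 FPKM in the control library (741 fragments) and 22.8 in that labelled knockdown (955), while OTUD6B had 34.1 and 35.8 FPKM. The fragment ratio of the antisense RNA was 1.06 (0.960 to 1.17), and its log2 ratio of FPKM, with a pseudocount of 1 in each library, was −0.18. ELFN1-AS1, whose junction is shown above, lies inside ELFN1 on the opposite strand at chr7:1744833-1748592. It had 19.8 and 17.6 FPKM from 203 and 223 fragments on models of nearly equal length, 673 and 680 bases. ELFN1 stood at 0 in the control library and at 1.84 FPKM (136 fragments) in that labelled knockdown. How far this difference rests on the models built for ELFN1 in each assembly was not tested. MINCR, an RNA described as induced by MYC, lies tail to tail with GLI4 at chr8:144433642-144436108, 3166 bases away. It had 2.69 FPKM in the control library (69 fragments) and 8.31 in that labelled knockdown (190), a log2 ratio of 1.34 and a fragment ratio of 2.26 (1.71 to 3.02). The control carried it on 1 model of 1617 bases and the other library on 2 shorter ones of 1249 and 1131. With the highest model of each library in place of the sum, the log2 ratio was 0.50, no longer past 2-fold.

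At the 2 promoters shown above, the divergent RNA, named here for its low ratio, was lower in the library labelled knockdown. AC005076.1, at chr7:86618675-86619566 (minus strand), starts 47 bases from DMTF1. It had 3.97 FPKM in the control library (49 fragments) and 1.56 in that labelled knockdown (12), a log2 ratio of −0.96 and a fragment ratio of 0.201 (0.0973 to 0.383), and DMTF1 had 20.3 and 16.6 FPKM. The AC005076.1 model had 801 exonic bases in control and 446 in the other library, so its fragments were counted over unequal lengths. MHENCR, an RNA named for its expression in melanoma, starts 102 bases from GMEB2 at chr20:61728927-61730512 (plus strand). It had 3.97 FPKM in the control library (33 fragments) and 1.46 in that labelled knockdown (22), a log2 ratio of −1.01 (−0.81 without depth scaling) and a fragment ratio of 0.547 (0.304 to 0.967), and GMEB2 had 8.07 and 7.496 FPKM. The MHENCR model had 550 exonic bases in control and 789 in the other library. PIK3CD-AS2 lies inside PIK3CD, a gene of a PI 3-kinase catalytic subunit, on the opposite strand at chr1:9662351-9670221. It had 7.25 FPKM from 48 fragments on a model of 451 bases in control, and 3.14 FPKM from 102 fragments on a model of 1672 bases in the library labelled knockdown. Its log2 ratio of FPKM was −0.99, but the fragment ratio was 1.74 (1.23 to 2.51), the opposite direction.

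Host RNAs and intergenic RNAs follow. SNHG19, a small nucleolar RNA host gene, spans SNORD60 at chr16:2144907-2145356 (minus strand). It had 22.5 FPKM in the control library (65 fragments) and 19.2 in that labelled knockdown (70), a fragment ratio of 0.884 (0.621 to 1.26). LINC02331, at chr14:53221493-53387574 (minus strand), had 10 introns in all, 5 of them in both libraries, at 10.4 and 9.43 FPKM from 304 and 248 fragments. Its log2 ratio was −0.13 by FPKM and −0.58 by depth-scaled fragments. AC078923.1, at chr12:74368586-74385801 (minus strand), 176901 bases upstream of KRR1, was carried by 2 control models and 5 in the library labelled knockdown, at 2.95 FPKM (103 fragments) and 6.64 FPKM (242). Its fragment ratio was 1.93 (1.52 to 2.45). The log2 ratio of FPKM was 0.95 by the sum, and 0.36 with the highest model of each library in its place. C22orf34, annotated as lincRNA, lies at chr22:48192403-48220863 (minus strand). It had 4.98 FPKM in the control library (331 fragments) and 1.07 in that labelled knockdown (103), a log2 ratio of −1.53 and a fragment ratio of 0.255 (0.203 to 0.319). The control model that held 246 of its fragments begins at an exon far upstream for which the other assembly had no member model, as the drawing of the models shows.

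Several loci matched introns of genes that GENCODE annotates as protein coding. ZNF316, a zinc finger gene at chr7:6643582-6662580 (plus strand), had the most introns in both libraries, 7 of 8. It stood at 10.5 FPKM in the control library and 8.78 in that labelled knockdown, a log2 ratio of −0.23. Its fragments, 348 and 932, gave a ratio of 2.20 (1.94 to 2.49), in the opposite direction, and the last exon was built longer in the library labelled knockdown. MUC3A, a membrane mucin of the intestine, lies 1209 bases upstream of MUC12 at chr7:100396049-100398415 (plus strand). It had 23.6 FPKM in the control library (715 fragments) and 19.3 in that labelled knockdown (734), a fragment ratio of 0.842 (0.759 to 0.935), with all 3 introns in both. ATP6V1E2, an isoform of a subunit of the vacuolar proton pump, lies at chr2:46614371-46623186 (minus strand). It had 2.73 FPKM in the control library (92 fragments) and 8.97 in that labelled knockdown (286), a log2 ratio of 1.42 and a fragment ratio of 2.55 (2.01 to 3.26). Of the 3 introns of ATP6V1E2, 1 was in the control model.

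**Figure D3:**
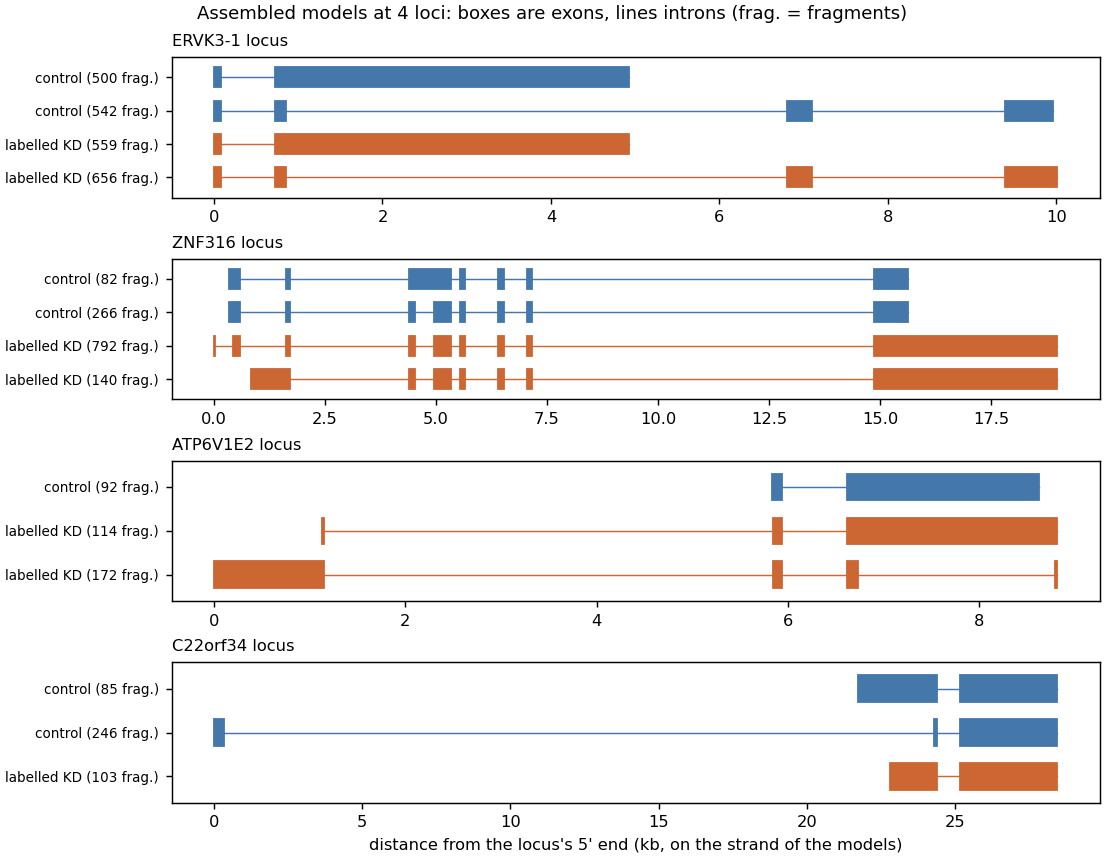
Exons (boxes) and introns (lines) of the member models at the ERVK3-1, ZNF316, ATP6V1E2 and C22orf34 loci, in kilobases from the 5′ end of each locus, for control (blue) and the library labelled knockdown (orange, "labelled KD"), with the fragments on each model. The ERVK3-1 models are nearly the same in both libraries, while the last exon of ZNF316 and the first exons of ATP6V1E2 and C22orf34 differ.

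Pseudogene loci gave the widest range, from a log2 ratio of −2.52 to 1.04 over 12 loci in both libraries. The range was nearly as wide for the 67 loci with no matched intron, from −1.70 to 1.68. Near-identical copies can divide fragments in either way, so the values of pseudogene loci are uncertain. AC083899.1, an unprocessed pseudogene at chr2:87266211-87269530 (plus strand), had 40.7 FPKM in the control library and 6.26 in that labelled knockdown, from 16 fragments in each. The control model had 71 exonic bases and the other 175, and the fragment ratio was 0.821 (0.384 to 1.75). AP000769.1 lies between MIR612 and MALAT1, 10606 bases downstream of MIR612, at chr11:64979210-64981002 (plus strand). It had 5.74 and 12.8 FPKM from 67 and 84 fragments on models of 758 and 375 bases, with a fragment ratio of 1.03 (0.737 to 1.44). For both, the FPKM differed by more than 2-fold while the fragments did not differ beyond counting error. An unmatched locus inside SDHAP3, a pseudogene of a succinate dehydrogenase subunit, at chr5:1631238-1633175 (minus strand) had the highest ratio of all. It stood at 1.74 FPKM in the control library (26 fragments) and 7.74 in that labelled knockdown (160), a log2 ratio of 1.68 and a fragment ratio of 5.05 (3.32 to 7.97), on models of 953 and 1083 bases. SDHAP3 itself stood at 8.46 FPKM in the control library (133 fragments) and 5.53 in that labelled knockdown (310). Its FPKM and its fragments thus pointed in different directions.

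Some well-supported loci had no GENCODE counterpart under the matching used. A locus at chr12:115406584-115417669 (minus strand), 37941 bases head to head from LINC00173, had 24.4 FPKM in the control library (212 fragments) and 27.5 in that labelled knockdown (330). Its fragment ratio was 1.28 (1.07 to 1.52), and 3 of its 5 introns were in both libraries. LINC00173 stood at 11.1 FPKM in the control library (208 fragments) and 6.94 in that labelled knockdown (281). Its FPKM was thus lower and its fragments higher in the latter, also after scaling to depth. A locus 3947 bases upstream of TCF7L2, a transcription factor of the Wnt pathway, at chr10:114655610-114696052 (plus strand) shared 5 of 6 introns. It had 7.01 and 5.95 FPKM from 111 and 139 fragments, beside 59.2 and 55.3 FPKM for TCF7L2. Another, 7578 bases head to head from the transcription factor gene ONECUT3 at chr19:1676996-1697084 (minus strand), also shared 5 of 6 introns and had 7.77 and 5.70 FPKM from 163 and 147 fragments. ONECUT3 stood at 5.64 FPKM in the control library (541 fragments) and 14.7 in that labelled knockdown (1629). At chr1:142725259-142764896 (plus strand), 165855 bases from PPIAL4G, one of several near-identical genes, a locus had 23.6 and 15.8 FPKM from 66 and 56 fragments, a fragment ratio of 0.696 (0.479 to 1.01). The lowest ratio among loci with 20 or more fragments in at least 1 library was at chr14:64816745-64817247 (minus strand), 54342 bases from MIR4708. It had 15.3 FPKM in the control library (38 fragments) and 3.995 in that labelled knockdown (12), a log2 ratio of −1.70 and a fragment ratio of 0.259 (0.123 to 0.507), on models of 199 bases in both.

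The 4 farthest loci in both libraries had between 1.05 and 4.98 FPKM, within the central 90% of the models. At chr3:105487112-105537727 (minus strand), 1030520 bases from the cell adhesion gene ALCAM, a locus without a GENCODE counterpart had 3.78 FPKM in the control library (413 fragments) and 3.496 in that labelled knockdown (322). The log2 ratio of this locus was −0.09 by FPKM and −0.64 by depth-scaled fragments. LINC02163, at chr5:103444392-103447155 (plus strand), 518003 bases from NUDT12, had 1.05 and 1.501 FPKM from 30 and 45 fragments. An unmatched locus at chr3:5707436-5716077 (minus strand), 440496 bases from MIR4790, had 3.46 and 4.23 FPKM from 191 and 289 fragments. LINC02008, at chr3:82317190-82552212 (plus strand), 423550 bases from GBE1, had 4.98 FPKM in control from 28 fragments and 2.86 in the library labelled knockdown from 253. Its fragment ratio of 7.41 pointed the other way from its FPKM, on models of 315 and 599 bases in control and of 4483 and 4419 in the other library.

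Over the 189 loci in both libraries, 4 stood at least 2-fold above control in the library labelled knockdown and 4 at least 2-fold below it, 2.12% each, or 4.23% either way. Without the depth scaling the split was 6 higher and 3 lower, with the median of all loci shifted to 0.22. Over all 13786 loci joined in the same way, RefSeq genes included, 0.566% were higher and 0.602% lower, 1.17% either way. The 4 higher were the SDHAP3 locus, ATP6V1E2, MINCR and AP000769.1, and the 4 lower were AC083899.1, the locus near MIR4708, C22orf34 and MHENCR. The median log2 ratio was −0.06 (108 of 189 below 0), against −0.0041 over all 13786. The central 95% of the members lay between −0.97 and 0.94, and that of all loci between −0.60 and 0.56. The members also rest on fewer fragments than RefSeq genes, and the part of that in the wider range was not tested. Of the 8 loci past 2-fold, 6 had a fragment interval that excluded 1 in the same direction, the exceptions being AC083899.1 and AP000769.1, and 5 were past 2-fold by fragments as well. The direction of these 8 was the same under each alternative that gave a value, though not always past 2-fold. Of the 26 named loci in both libraries, 11 changed direction under at least 1 alternative, all within 2-fold with a pseudocount of 1. PIK3CD-AS2 stood nearest to that limit among them, at −0.99. Its log2 ratio was −1.18 with a pseudocount of 0.1 and 0.80 by depth-scaled fragments.

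**Figure D4:**
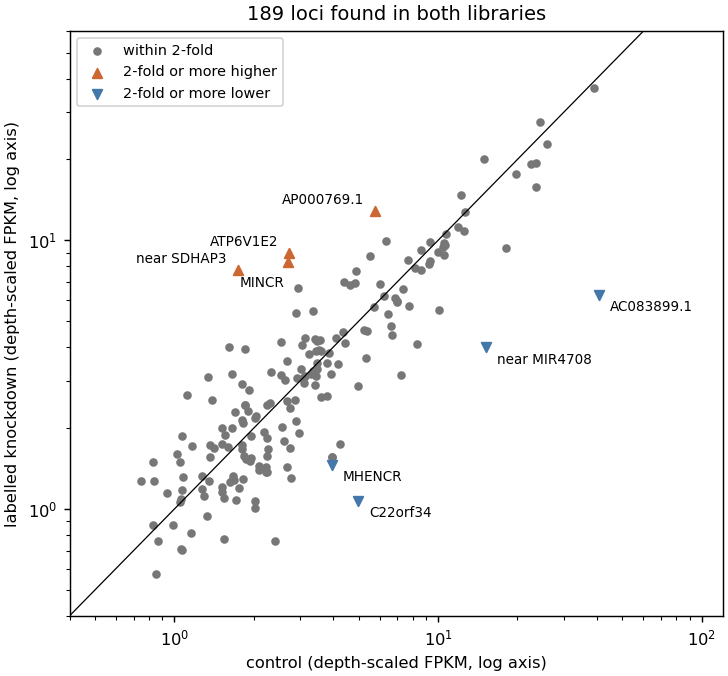
Summed level of each of 189 loci with models in both libraries, control against the library labelled knockdown (depth-scaled FPKM, log axes, line of equal values); triangles are loci 2-fold or more apart with a pseudocount of 1. Most loci lie near the line, and the 4 higher and 4 lower loci carry names.

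Model length moved with these ratios. The mean length behind a locus's FPKM differed by more than 1.5-fold between the libraries in 54 of the 189 loci (28.6%). In 48 of the 54 the fragments were higher in the library with the longer models, and in 37 the FPKM was lower there. FPKM divides by length, so both ratios share that term, and the part of model building in either was not tested. Counted by depth-scaled fragments with no length term, 18 loci stood 2-fold or more above control and 20 below (20.1% in all), against 2.94% and 3.75% of all loci, 6.69% either way. Among 58 pairs of models with identical introns and lengths within 10% of each other, 0 were 2-fold higher and 1 was lower, the locus near MIR4708 (1.72%). The same rule over 14282 pairs of all models gave 2.2% higher and 2.16% lower, 4.36% either way. The median over the 58 was −0.09. These measures were added after the first counts had been seen.

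**Figure D5:**
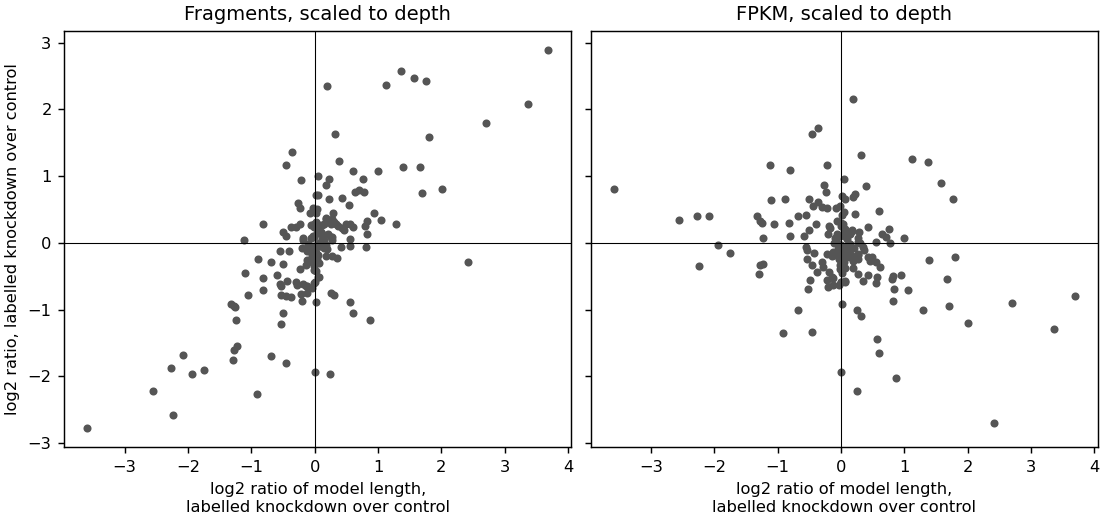
Log2 ratio of depth-scaled fragments (left) and of depth-scaled FPKM (right) against the log2 ratio of mean model length, each the library labelled knockdown over control, for the 189 loci in both libraries (1 point per locus, no pseudocount). Fragments are higher where models are longer in 48 of the 54 loci whose lengths differ by more than 1.5-fold, and FPKM is lower there in 37.

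The other 528 loci had member models in 1 assembly. They rested on a median of 22 fragments, against 49 in the control library and 60.8 in that labelled knockdown for loci in both. Most had RNA at the same bases in the other library: 141 of 238 control loci (59.2%) and 159 of 290 (54.8%) had 50% or more of their exonic bases under other models there. Some bases lay under an unspliced model of the other library in 136 (57.1%) and 156 (53.8%). No base was covered in 60 (25.2%) and 94 (32.4%), 154 in all, with a median of 15.5 fragments and at most 144. Of 47 loci in 1 assembly with 100 or more fragments, 5 were uncovered in the other.

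The highest control locus without a match had RNA at a similar level in the other library. It lies 26 bases upstream of MIR1204 at chr8:128875961-128877364 (plus strand), in PVT1, the long noncoding RNA gene beside MYC. It had 71.0 FPKM in control from 230 fragments on 245 exonic bases. In the library labelled knockdown 201 of these bases (82.0%) lay on an assembled model of 3 exons with 70.1 FPKM and 565 fragments that is not a member. The next control loci, at 48.5 FPKM (64 bases, 14 fragments) at chr3:157176627-157188682 and at 40.7 FPKM (86 bases, 26 fragments) at chr5:72318162-72329209, lay for 87.5% and 87.2% of their bases under unspliced models of the other library. All 3 thus had most of their bases under a model of the other library.

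In the library labelled knockdown the highest such locus, inside the formin gene FMNL2 at chr2:152953064-152954815, had 36.9 FPKM from 26 fragments on 82 bases. An unspliced control model at 16.1 FPKM covered 90.2% of it. A locus of FANCD2P2, a pseudogene of the DNA repair gene FANCD2, at chr3:11890205-11897393 had 31.6 FPKM from 12 fragments on 66 bases, and no control model covered it. The third, 248 bases downstream of the splicing factor gene SFPQ at chr1:35414308-35421540 (minus strand), was of another order. It had 31.2 FPKM from 1655 fragments on 4 exons and 2702 bases, and its 3 introns matched SFPQ in GENCODE. Chosen after its values were seen, a control locus at chr1:35416181-35421538 with 30.4 FPKM, 2332 fragments and 2 exons covered 83.6% of these bases without sharing an intron. The pair thus stood at similar levels on models with different introns, beside 185 and 187 FPKM for SFPQ itself.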

How the data were processed

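RNA from 1 control library and 1 library labelled USP49 knockdown had been assembled into transcript models by the authors with Cufflinks, guided by RefSeq, per the file headers. The submitters' processing notes also name TopHat, Bowtie, SAMtools, Picard and bedtools and the build hg18. The version of each tool is not given in the sources. Coordinates are 1-based hg18 unless GRCh38 is named. The deposited FPKM followed fragments over length less 47 bases with no term for depth, so values were scaled to recovered fragment totals (ratio 1.22; the median deposited ratio over 14132 RefSeq models was 1.21). The deposited score column of the files was not used.

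Members were read from the deposited models by the rule in the opening, with Python 3.11.15, numpy 2.4.6 and scipy 1.17.1. Models sharing an exact intron formed a locus, its level being their summed FPKM. Ratios are log2 of the level labelled knockdown plus 1 FPKM over that of control plus 1. Intervals are exact: Poisson for levels, binomial for shares and fragment ratios. GENCODE 29 was compared by intron length and distance, with no coordinate conversion. Fold recovery, base overlap and joining by shared intron were tested on simulated data, with the same model length in both libraries. The GENCODE matching was not tested in this way.

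Loci were named by rank: the 8 highest in both libraries, the 5 highest and 5 lowest ratios (20 or more fragments in at least 1 library, mean of 1 FPKM or more), the 4 with most shared introns, the 4 farthest from RefSeq, and the 3 highest without a match in each library. The members, lists and rules were chosen with earlier results of these data known. Alternatives covered the rule, matching, pseudocount, scaling and filters. RefSeq symbols came from a GRCh38.p14 table, used for names and promoters. The chromatin part of the study was not analysed here.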

Additional observations from a re-analysis of the deposited data

How the results depend on the processing

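Of the alternatives tried, 24 values moved by more than their counting error or by over 1.5 times, and 30 did not. Asking for 3 or more exons left 138 control models and 165 in the other library, with median levels of 2.04 and 1.82 FPKM. Matching by the identical chain of introns lowered the share found again to 26.8% and 23.8%, and models of 1 FPKM or more raised it to 48.4% in the library labelled knockdown. With coding RefSeq transcripts alone, the median distance was 10336.5 and 10274.5 bases and the share inside a gene span 13.3% in each; with genes of the same strand alone, 29696 and 38067.5 bases, 10.5% and 9.36%. Loci 2-fold higher and lower numbered 9 and 11 with a pseudocount of 0.1, 1 and 2 by identical introns, 0 and 1 when lengths had also to be within 10%, and 18 and 20 by fragments; the last 2 settings were added after seeing the data, and the identical-intron settings hold fewer loci, 127 and 58 of 189. Without scaling the median log2 ratio was 0.15, while that of all loci moved to 0.22. Of the named loci, 26 values moved and 104 did not, and no locus past 2-fold with a pseudocount of 1 changed direction. PIK3CD-AS2, just inside that limit at −0.99, was at −1.18 with a pseudocount of 0.1 and at 0.80 by depth-scaled fragments. No paired analysis was possible because each group has 1 library. The median of 30 and 31.4 fragments per model limits the detection of introns and of any ratio between the libraries.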

Other observations

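Among loci in both libraries are RNAs that GENCODE names and that no rule above picked; these were chosen after their values were seen. LINC01234, an intergenic RNA at chr12:112665692-112695871 (minus strand), had 14.9 FPKM in control and 20.01 in the other library from 789 and 884 fragments, with a depth-scaled fragment ratio of 0.919 (exact 95% interval 0.834 to 1.01), so FPKM and fragments pointed in different directions. MIR200CHG, the host of the epithelial microRNAs MIR200C and MIR141, stood at 3.10 and 2.94 FPKM from 15 and 20 fragments. GATA2-AS1, antisense to the transcription factor gene GATA2, stood at 4.42 and 4.16 FPKM from 326 and 361 fragments. SNHG21, which spans SCARNA15, had 4.89 and 7.70 FPKM from 66 and 90 fragments, a fragment ratio of 1.12 (0.805 to 1.56). VIM-AS1, head to head with the vimentin gene, had 1.54 and 1.102 FPKM from 30 and 35 fragments. For each of the last 4 the fragment ratio had an interval that included 1.

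A pair of loci on models of nearly equal length in both libraries ran in different directions, 1 of them beyond counting error. They were chosen after their values were seen, from 62 loci with lengths within 10% of each other. An unmatched locus 4581 bases downstream of NKX2-2, a homeobox gene, at chr20:21427910-21435079 (minus strand) had 6.66 FPKM in the control library and 4.42 in that labelled knockdown from 730 and 589 fragments, on 1-intron models of 6740 and 6722 bases. Its fragment ratio was 0.662 (0.593 to 0.739). ERFE, which encodes the hormone erythroferrone, had 3.42 and 4.28 FPKM from 129 and 190 fragments on models of 2360 and 2269 bases, a fragment ratio of 1.21 (0.961 to 1.52), an interval that includes 1.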
